A study of Psammomys obesus with 8 samples.

Results

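Voltage-gated potassium (Kv) channel genes were read in a methyl-CpG capture data set from hypothalami of male sand rats (*Psammomys obesus*), desert gerbils that become obese and diabetic on rich laboratory diets. A Kv contig was an assembled piece of sand rat sequence whose mouse match lay inside a gene named Kcna, Kcnb, Kcnc, Kcnd, Kcnf, Kcng, Kcnh, Kcnq, Kcns or Kcnv, with Kcnq1 left out. This gave 357 Kv contigs of 548060 contigs in all, and of 125082 inside any mouse gene. They fell in 39 Kv genes of 18910 genes with a contig inside. The rule itself reads gene names and match positions, not counts. All 357 contigs and all 39 genes passed the minimum mean of 10 counts per library.

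The 8 libraries came from males aged 16 weeks after birth and fall into 4 low-low and 4 standard-low libraries, after the titles in the labels. Each library's diet is labelled low lipid in the first group and standard lipid in the second, the design text names the fathers' diets as the difference, and the series title speaks of the parents. The labels do not say what the second "low" in each name stands for, and they name no separate animal, father or litter for a library, so each p-value reflects only how these libraries spread, which may be technical. The question was where hypothalamic DNA methylation differed between these offspring. Totals ran from 11646180 to 13533441 counts per library, of which 9231 to 11827 lay on Kv contigs.

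MethylMiner binds methylated double-stranded DNA with the methyl-CpG binding domain of the MBD2 protein, so a count rises with the methylated CpG sites in a fragment as well as with their methylation. Libraries of DNA without capture were not used here, so a level is not a percent of methylation. Values are CPM, counts scaled to 1e+06 counts of a library, whose total was first multiplied by an edgeR TMM factor. The tissue was bulk hypothalamus, and a change of methylation within cells cannot be told apart from a change in the share of cells that carry it. Captured DNA gives no expression, so the tissue label could not be checked against expressed markers.

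Kv channels open when the membrane is depolarised and let potassium leave the cell, which ends the action potential and sets how often a neuron fires. The Shaker (Kcna), Shab (Kcnb), Shaw (Kcnc) and Shal (Kcnd) subfamilies form channels of their own. Kcnq subunits carry the M-current, which holds back repeated firing, and Kcnh genes encode the EAG, ERG and ELK channels. Kcnf, Kcng, Kcns and Kcnv subunits form no working channel alone and join Kcnb subunits, whose currents they alter. In the hypothalamus these channels shape the firing of neurons that control feeding and hormone release, and mice that lack Kcna3 weigh less.

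Potassium selectivity rests on a short pore motif, and its codons mark the contigs that reach the pore. They were searched on both strands of every contig as 18 bases. The letters were those of the codons of threonine, valine, glycine, tyrosine, glycine and aspartate in that order, with leucine, isoleucine or methionine also allowed for valine, or of serine, valine, glycine, phenylalanine, glycine and asparagine, the form of Kcnh channels. The codons lay in 31 of the 357 Kv contigs (8.68%), 1 contig in each of 31 genes. In all, 39 of the 125082 contigs inside genes held them (0.0312%), the 31 Kv contigs included, and 54 of the 548060 contigs of the table (0.00985%). The 24 contigs with the tyrosine form came from every subfamily but Kcnd and Kcnh, and the 7 with the phenylalanine form all came from Kcnh. No contig of Kcna2, Kcnd1, Kcnd2, Kcnd3, Kcng2, Kcnh5, Kcnq5 or Kcnv1 held these letters. Below, 1 gene of each of 8 subfamilies with a match is shown to let the codons be compared, read along the coding strand from 5′ to 3′, with the 18 bases in capitals.
Kcna1: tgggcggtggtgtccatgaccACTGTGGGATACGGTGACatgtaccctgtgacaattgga
Kcnb2: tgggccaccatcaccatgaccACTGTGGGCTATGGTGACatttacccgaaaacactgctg
Kcnc1: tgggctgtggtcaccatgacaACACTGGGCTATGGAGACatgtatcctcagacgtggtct
Kcnf1: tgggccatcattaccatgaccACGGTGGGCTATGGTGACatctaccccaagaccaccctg
Kcng4: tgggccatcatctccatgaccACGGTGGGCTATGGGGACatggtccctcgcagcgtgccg
Kcnh2: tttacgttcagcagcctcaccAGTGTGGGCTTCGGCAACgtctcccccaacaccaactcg
Kcns3: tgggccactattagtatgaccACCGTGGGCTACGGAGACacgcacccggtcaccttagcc
Kcnv2: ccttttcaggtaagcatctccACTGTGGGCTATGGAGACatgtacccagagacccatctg
The contigs matched mouse chr6:126641800-126642428 for Kcna1, chr1:15709427-15711524 for Kcnb2, chr7:46427943-46428278 for Kcnc1, chr12:17174794-17175677 for Kcnf1 and chr8:119625059-119626096 for Kcng4. Those of Kcnh2, Kcns3 and Kcnv2 matched chr5:24325222-24325681, chr12:11091158-11093334 and chr19:27333604-27334122. The coding strand was the minus strand of the mouse chromosome for Kcna1, Kcnf1, Kcng4, Kcnh2 and Kcns3 and the plus strand for Kcnb2, Kcnc1 and Kcnv2. The sources used here do not name the mouse build, and the letters are those of the sand rat contigs. The motif itself held 1 CpG in Kcna1, Kcnf1, Kcng4 and Kcnh2, 2 in Kcns3 and 0 in Kcnb2, Kcnc1 and Kcnv2. The 31 contigs had a median of 4.31 CPM per kb of contig (1.68 to 8.26), against 3.43 CPM per kb over all Kv contigs. They were also denser in CpG, with a median of 3.15 against 2.46 CpG per 100 bases, and the part of this in their level was not tested.

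Contigs were spread unevenly over the genes. Kcnh1, the EAG channel, had 29, Kcnq5 24, Kcnh5 21 and Kcnd3 20. Fewer lay in Kcna5, with 16, Kcnd2 15, Kcnh3 and Kcnh7 13 each, Kcnb2 and Kcnh8 12 each, and Kcnc1 and Kcnh4 11 each. Kcnh6 had 9, Kcng1 and Kcnh2 8 each, Kcnq3 7, and Kcnc2, Kcnc4, Kcnd1 and Kcng2 6 each. Kcna6, Kcng3 and Kcng4 had 5 each, Kcna1, Kcns1 and Kcns3 4 each, Kcna10 and Kcnv2 3 each, and Kcna4 and Kcnf1 2 each. A single contig stood for each of Kcna2, Kcna3, Kcna7, Kcns2 and Kcnv1, so their values rest on that contig alone. Per 10 kb of mouse sequence between a gene's first and last contig, the density was 0.25 contigs in Kcnq3 (7 over 279 kb), 0.29 in Kcnd2 (15 over 513 kb), 6.54 in Kcnh2 (8 over 12.2 kb) and 8.08 in Kcnh3 (13 over 16.1 kb). The genes with few contigs for their span are long ones, so most of their length lay outside the contigs counted. The compact genes were not fully covered either, with 3816 contig bases over 12.2 kb in Kcnh2 and 8459 over 16.1 kb in Kcnh3.

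In 17 pairs, contigs of the same gene matched overlapping mouse bases, and such contigs are not separate sites if they are copies of one sand rat stretch. The longest overlap was 130 bases, between contigs of Kcnh5.

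Captured levels were of the same order across the family. Over the 8 libraries, the level per kb of contig was highest in Kcna7, a muscle channel gene, at 6.17 ± 1.09 CPM per kb (SD, n = 8). Kcns2 had 5.18 ± 0.612. The lowest were Kcna3 at 1.68 ± 0.441 CPM per kb, Kcna10 at 2.22 ± 0.388 and Kcnh8 at 2.67 ± 0.206. Of the 38 neighbouring pairs in this order, 36 lay closer than the larger of their SDs, so most ranks do not differ beyond the spread. The exceptions were at the low end, where Kcna3 lay below Kcna10 and Kcna10 below Kcnh8. By subfamily the level ran from 3.16 ± 0.366 CPM per kb in Kcnv to 4.16 ± 0.131 in Kcns. The median Kv contig had 3.43 CPM per kb and the median contig inside any gene 3.52.

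**Figure D1:**
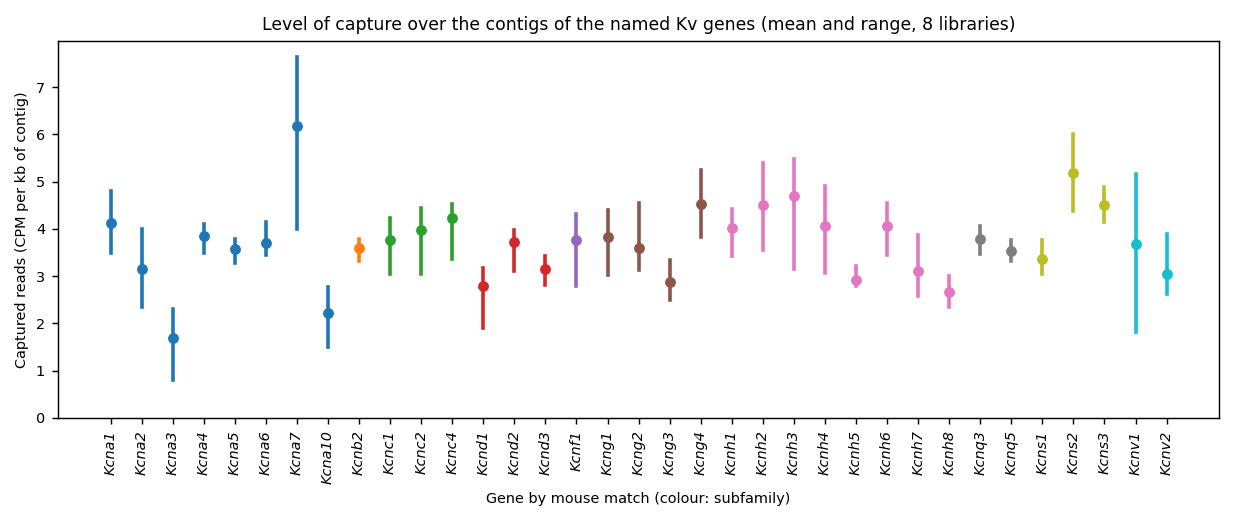
Captured DNA of the named Kv genes per kb of their contigs, in CPM per kb. Points are means and lines the range over the 8 libraries, with genes ordered and coloured by subfamily. Kcna7 has the highest mean and Kcna10 and Kcna3 the lowest, while most ranges overlap.

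Single contigs ranged more widely than whole genes. The range over all Kv contigs was 1.08 CPM per kb, in a Kcnh5 contig of 950 bases with 1.37 CpG per 100 bases, to 9.86, in a Kcnh6 contig of 346 bases with 2.60. The most abundant Kv contig was the Kcna7 contig 2255883, which is 3189 bases long with 86 CpG and matched mouse chr7:45408435-45410477. It had 17.0, 20.9, 20.6 and 21.9 CPM in the low-low libraries 1 to 4, against 20.2, 12.7, 24.4 and 19.8 CPM in the standard-low ones. Standard-low 2 was the lowest and standard-low 3 the highest, and the groups overlapped (adjusted p = 0.981, edgeR). Contig 10258 of Kcnh1 had 14.5, 14.3, 14.4 and 13.7 CPM in the low-low libraries, against 15.6, 9.70, 16.3 and 11.9 CPM in the standard-low ones, again with standard-low 2 lowest and standard-low 3 highest (adjusted p = 0.971, edgeR). The third, contig 3182226 of Kcnb2, had 11.6, 12.6, 13.2 and 12.5 CPM in the low-low libraries, against 11.7, 14.2, 12.9 and 11.0 CPM in the standard-low ones, and here standard-low 2 was the highest. It holds the pore codons of Kcnb2, and its groups overlapped.

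Kcna5, a channel of heart and smooth muscle, needs care as a gene in this table. Its 16 contigs ran over 155 kb of mouse chromosome 6, from 126533628 to 126688807, and this span encloses the contigs of Kcna1 (126636453 to 126642842), a channel of axons. The contig with the Kcna5 pore codons and 2 others lie within 1000 bases of the first position, and the other 13 lie farther on, 7 of them beyond Kcna1. The summed level of Kcna5 is therefore mostly that of DNA far from its pore codons. Those 3 contigs together had 2.37, 3.12, 2.65 and 3.15 CPM in the low-low libraries 1 to 4, against 2.99, 2.78, 3.98 and 2.87 CPM in the standard-low ones, with the groups overlapping.

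Kv contigs were close to other contigs inside genes in length (median 538 against 518 bases) and slightly denser in CpG, with a median of 2.46 against 2.26 CpG per 100 bases. Their GC content was 51.4% against 49.7%, and their mouse match was longer, with a median of 355 against 269 aligned bases. CpG-dense contigs, with at least 5 CpG per 100 bases, made up 14 of the Kv contigs (3.92%) and 1.73% of contigs inside genes. They included contigs of Kcnh2, Kcnh3, Kcnh6 (2 contigs), Kcna5, Kcnc1, Kcnd2, Kcnd3, Kcnf1, Kcng3 and Kcnv2. The level per kb was higher in CpG-denser Kv contigs (Spearman's rho 0.518), much as across contigs inside genes (0.514). These are descriptions across contigs that share libraries, depth and base composition.

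No Kv contig passed the threshold between the groups. With edgeR's quasi-likelihood test and Benjamini-Hochberg adjustment over all 548060 contigs, 0 of 357 Kv contigs were called at an adjusted p of 0.05, beside 147 in the whole table (0.0268%). The lowest adjusted p of a Kv contig was 0.596 in edgeR. DESeq2 called 0 Kv contigs, with 0.00584% of all contigs called, and limma voom 0, with 0.00912%. At an unadjusted p under 0.05, edgeR had 9 Kv contigs higher in standard-low, beside 2.93% of all contigs, and 18 lower, beside 2.76%. Together these are 27 of 357 Kv contigs (7.56%), against 5.68% of all contigs. Of contigs inside genes, 2.59% were higher and 3.41% lower at that level. DESeq2 had 12 Kv contigs at that level, beside 2.28% of all contigs, and voom 29, beside 5.56%. In all, 156 Kv contigs had a positive and 201 a negative log2 fold change of standard-low over low-low, with a median of -0.04 against -0.02 for contigs inside genes and 0.00 for all contigs. Groups did not overlap in CPM for 5 Kv contigs with higher standard-low values, beside 1.63% of all contigs, and for 7 with lower values, beside 1.61%. Inside genes these shares were 1.5% and 1.85%.

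Among the contigs with the lowest p in the lower direction were ones of Shaker, EAG, ELK and Shal genes. Contig 929017, named for Kcna5 and one of its 13 distant contigs, matched mouse chr6:126577195-126577595 and is 396 bases long with 13 CpG. It had 4.05, 4.01, 3.61 and 3.46 CPM in the low-low libraries 1 to 4, against 1.88, 1.10, 3.65 and 2.54 CPM in the standard-low ones. Standard-low 3 lay among the low-low libraries and the other three below them. The means were 3.78 ± 0.294 and 2.29 ± 1.08 CPM (SD, n = 4 each), a log2 fold change of -0.72 ± 0.21 (SE, adjusted p = 0.596, edgeR).

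Without standard-low 3, 2 Kv contigs passed the threshold, and this Kcna5 contig was among them (log2 fold change -1.04, adjusted p = 0.0427, edgeR). In that fit 195 of 540875 contigs passed (0.0361%), and 39 of 352 Kv contigs had an unadjusted p under 0.05, 11 higher and 28 lower, beside 3.52% and 4% of all contigs. Leaving out any other single library gave 0 Kv contigs past the threshold.

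The ELK channel gene Kcnh4 had contig 1567914, at mouse chr11:100752231-100752528, with 1.53, 2.82, 2.97 and 2.38 CPM in the low-low libraries, against 1.37, 0.928, 1.82 and 1.44 CPM in the standard-low ones. Low-low 1 lay within the standard-low range and the other three low-low libraries above it (log2 fold change -0.80 ± 0.25 (SE), adjusted p = 0.681, edgeR). Contig 388738 of Kcnh1, at mouse chr1:192238642-192238881, had 4.05, 4.83, 5.38 and 4.30 CPM in the low-low libraries, against 3.51, 3.54, 3.56 and 2.96 CPM in the standard-low ones. Here every low-low library lay above every standard-low library, by a small margin (log2 fold change -0.45 ± 0.18 (SE), adjusted p = 0.819, edgeR). Contig 665542 of Kcnd2, which carries part of the channel that gives neurons their A-type current, matched mouse chr6:21216344-21217454 and holds 72 CpG in 1115 bases. It had 6.80, 7.73, 8.27 and 5.68 CPM in the low-low libraries, against 6.50, 4.81, 5.72 and 4.56 CPM in the standard-low ones, and the groups overlapped through low-low 4 (log2 fold change -0.40 ± 0.16 (SE), adjusted p = 0.821, edgeR).

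In the higher direction stood contigs poorer in CpG. Contig 3604352 of Kcnh3, an ELK channel gene of the forebrain, has 7 CpG in 348 bases. With only 47 of those bases matched to mouse, at chr15:99235642-99235688, the contig has an uncertain place in Kcnh3. It had 0.993, 0.743, 0.722 and 0.768 CPM in the low-low libraries 1 to 4, against 1.54, 1.94, 1.33 and 1.35 CPM in the standard-low ones, with no overlap. The means were 0.807 ± 0.126 and 1.54 ± 0.283 CPM (SD, n = 4 each), a log2 fold change of 0.92 ± 0.31 (SE, adjusted p = 0.731, edgeR).

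A pair of contigs of Kcnh8, another ELK channel gene, followed. Contig 2128879, at mouse chr17:52977244-52977837, had 0.993, 0.669, 1.28 and 1.15 CPM in the low-low libraries, against 1.63, 2.78, 1.24 and 1.35 CPM in the standard-low ones (log2 fold change 0.77 ± 0.29 (SE), adjusted p = 0.803, edgeR). Contig 1669316, of which 41 bases matched mouse chr17:52711824-52711864, had 0.993, 1.11, 0.803 and 0.768 CPM in the low-low libraries, against 1.71, 1.86, 1.16 and 1.52 CPM in the standard-low ones (log2 fold change 0.75 ± 0.30 (SE), adjusted p = 0.821, edgeR). The groups overlapped in the first, through standard-low 3, and not in the second. Those 41 mouse bases are also matched by a further Kcnh8 contig, so the place of the second contig is uncertain.

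**Figure D2:**
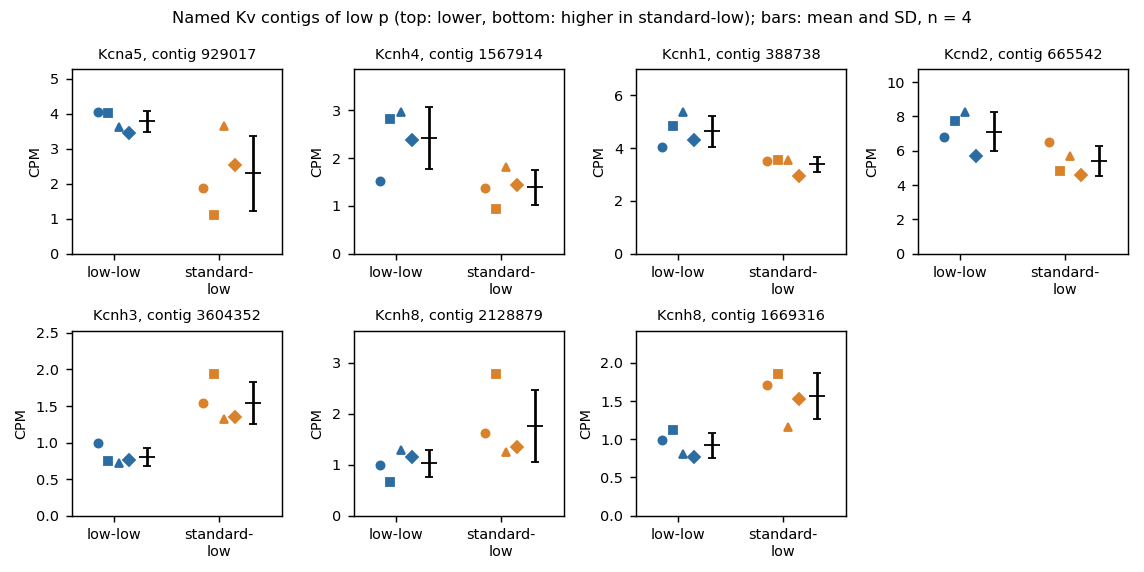
CPM of 7 named Kv contigs among those with the lowest p, lower (top) or higher (bottom) in standard-low, in the low-low libraries (left of each panel) and the standard-low ones (right), with the marker shape giving the library number and bars the mean and SD of 4. No contig passed the adjusted threshold; standard-low 3 stands with the low-low libraries in the Kcna5 contig 929017.

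The CpG content of contigs on the lower and the higher side can be read from their letters. Below are the 200 bases with the most CpG in each of 4 contigs picked to show the contrast, those of Kcnd2 and Kcnh4 from the lower side and of Kcnh3 and Kcnh8 (contig 1669316) from the higher side, as the files give their strand, with each CpG in capitals.
Kcnd2 contig 665542: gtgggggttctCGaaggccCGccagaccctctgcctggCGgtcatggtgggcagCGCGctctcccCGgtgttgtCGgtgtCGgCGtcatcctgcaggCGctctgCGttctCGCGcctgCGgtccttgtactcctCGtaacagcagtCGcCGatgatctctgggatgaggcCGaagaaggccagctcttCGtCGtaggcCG
Kcnh4 contig 1567914: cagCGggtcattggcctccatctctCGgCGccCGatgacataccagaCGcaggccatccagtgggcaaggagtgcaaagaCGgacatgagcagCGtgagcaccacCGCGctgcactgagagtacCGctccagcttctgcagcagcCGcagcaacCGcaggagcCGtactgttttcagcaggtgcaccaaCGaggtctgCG
Kcnh3 contig 3604352: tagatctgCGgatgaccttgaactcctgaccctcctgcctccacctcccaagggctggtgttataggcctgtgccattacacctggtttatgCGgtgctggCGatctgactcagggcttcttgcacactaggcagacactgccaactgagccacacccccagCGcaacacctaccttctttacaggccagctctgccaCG
Kcnh8 contig 1669316: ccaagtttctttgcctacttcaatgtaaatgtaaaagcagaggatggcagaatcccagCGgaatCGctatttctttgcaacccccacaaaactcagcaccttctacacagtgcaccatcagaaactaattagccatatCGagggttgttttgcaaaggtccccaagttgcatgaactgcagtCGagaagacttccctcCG
The Kcnd2 stretch holds 21 CpG and that of Kcnh4 15, against 5 each in the Kcnh3 and Kcnh8 stretches. Chosen in the same way, the stretch of the Kcna5 contig 929017, the one with the lowest p, held 9, that of the Kcnh1 contig 388738 held 16 and that of the other Kcnh8 contig 5. The stretches shown are bases 624 to 823, 28 to 227, 33 to 232 and 232 to 431 of their contigs. Against the plus strand of mouse, the contigs of Kcnd2, Kcnh3 and Kcnh8 are reversed and that of Kcnh4 is not.

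Across all Kv contigs, the direction followed CpG density. The 96 contigs under 2 CpG per 100 bases had a median log2 fold change of 0.16, of which 65 were positive and 31 negative. The 164 contigs from 2 to 3 had a median of -0.04, the 83 from 3 to 5 had -0.21 (14 higher, 69 lower), and the 14 at 5 or more had -0.25 (3 higher, 11 lower). Of the 18 contigs lower at an unadjusted p under 0.05, 12 fell in the class from 3 to 5 (14.5% of that class) and 4 in the densest (28.6%), beside 7.67% and 15.8% of contigs inside genes in these classes. Without standard-low 2 these counts were 5 of 82 and 3 of 14, beside 1097 of 22087 and 152 of 2161 contigs inside genes. In that fit 13 of 354 Kv contigs were lower and 13 higher, beside 2.7% and 2.71% of all contigs. With all libraries, of the 9 higher ones 4 fell under 2 CpG per 100 bases (4.17%) and 4 from 2 to 3 (2.44%), beside 4.38% and 2.11% of contigs inside genes. Contigs inside genes ran the same way, with medians of 0.07, -0.02, -0.13 and -0.24 from the sparsest to the densest class. Spearman's rho between CpG density and log2 fold change was -0.394 over the Kv contigs and -0.282 over contigs inside genes, given as a description.

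**Figure D3:**
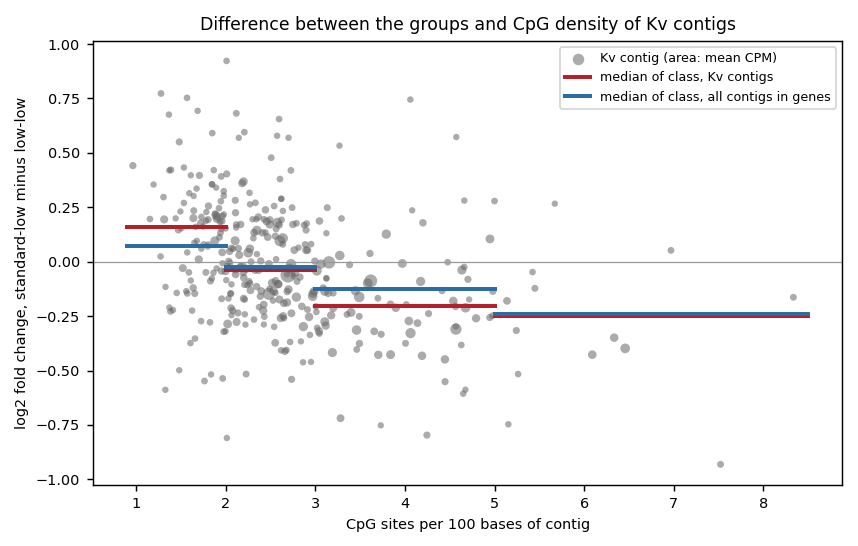
Log2 fold change of standard-low over low-low for each of the 357 Kv contigs against its CpG per 100 bases, with the point area giving the mean CPM and lines the medians of 4 classes for Kv contigs and for all contigs in genes. Points under 2 CpG per 100 bases lie mostly above 0 and points over 3 mostly below.

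The libraries of one group were not alike in this respect. In the 14 densest Kv contigs, the median log2 deviation from a contig's mean was 0.12, 0.28, 0.21 and 0.16 in low-low 1 to 4 and 0.09, -0.46, 0.30 and -0.15 in standard-low 1 to 4. Standard-low 2 and standard-low 4 lay below all low-low libraries, standard-low 3 above all of them, and standard-low 1 just below. The share of all counts of a library that lay on contigs with at least 5 CpG per 100 bases gave the libraries nearly the same order, with 1.23%, 1.42%, 1.42% and 1.37% in low-low and 1.23%, 1.07%, 1.45% and 1.10% in standard-low. The part of this library difference in the Kv values was not tested. Without standard-low 2, the medians of the 4 classes were 0.12, 0.00, -0.11 and -0.20, in the same order but closer to 0. The median of all Kv contigs then was 9.38e-05, with 177 contigs higher and 177 lower.

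**Figure D4:**
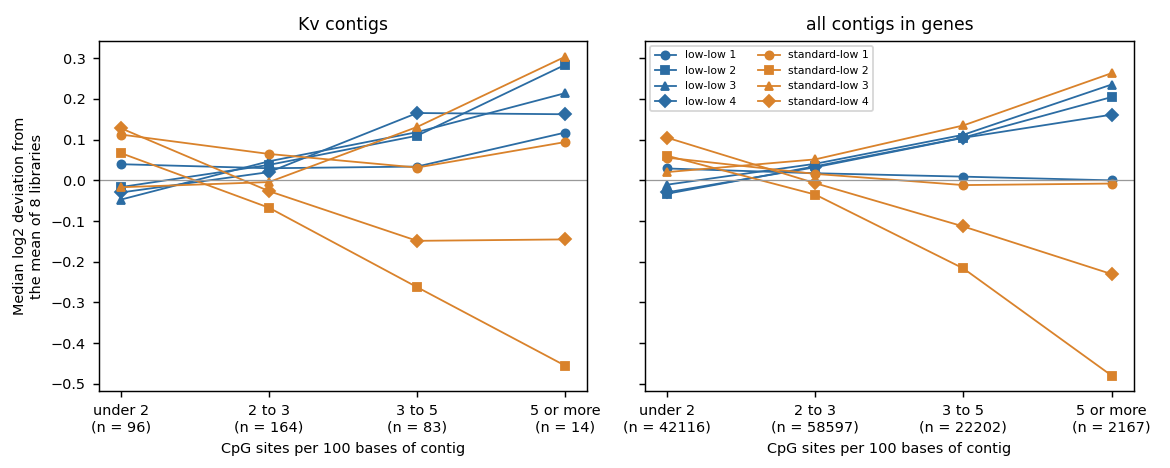
Median log2 deviation of the Kv contigs from their mean over libraries, by class of CpG per 100 bases, with 1 line per library, and the same for all contigs in genes in the right panel. Among Kv contigs of the densest class, standard-low 2 is lowest at -0.46 and standard-low 3 highest at 0.30.

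Of the 31 contigs with the pore codons, 23 had a negative and 8 a positive log2 fold change, with a median of -0.13, and they held a median of 3.15 CpG per 100 bases. At an unadjusted p under 0.05 stood 4 of them, 3 lower and 1 higher, beside 3.41% and 2.59% of contigs inside genes. The Kcng4 pore contig was 1 of the 3, with 6.67 ± 0.639 CPM in the low-low libraries, against 5.37 ± 0.679 CPM in the standard-low ones (SD, n = 4 each), a log2 fold change of -0.31 (adjusted p = 0.876, edgeR).

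Summed over the contigs of a gene, 0 of the 39 Kv genes passed, with 1 of all 18910 genes called (0.00529%), and the lowest adjusted p was 0.805 in edgeR. DESeq2, with 1 gene called of all, and limma voom, with 0, also called 0 Kv genes. At an unadjusted p under 0.05, 3 Kv genes were lower (Kcng1, Kcng4 and Kcnd1), beside 4.33% of all genes, and 0 were higher, beside 1.7%. Without standard-low 3 these were 12 lower and 1 higher, beside 12.2% and 2.6% of all genes, and 0 Kv genes passed, beside 0.143%. Of the 39, 15 were higher and 24 lower, with a median log2 fold change of -0.08 against -0.03 over all genes. Without standard-low 2, 18 were higher and 21 lower and the median was -0.02. That library was the lowest of the 8 in 16 of the 39 Kv genes, and in 33.1% of all genes.

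Among the subunits that form channels of their own, the log2 fold changes of the 8 Shaker genes ran from -0.33 in Kcna3 to 0.11 in Kcna4. Kcna1 had 9.32, 8.84, 7.87 and 7.07 CPM in the low-low libraries, against 6.76, 9.19, 7.29 and 7.69 CPM in the standard-low ones, with the groups overlapping. Kcna2, its partner in axons, had 2.29, 2.97, 2.49 and 2.07 CPM in the low-low libraries, against 2.65, 2.78, 1.74 and 1.77 CPM in the standard-low ones. Kcna3, a channel of T cells and neurons read here from 1 contig and picked out after its values were seen, had the largest fitted difference in size of the 39 Kv genes. It had 1.91, 1.86, 2.65 and 2.23 CPM in the low-low libraries, against 2.22, 2.02, 0.912 and 1.69 CPM in the standard-low ones (log2 fold change -0.33 ± 0.25 (SE), adjusted p = 0.8285, edgeR). Standard-low 3 and standard-low 4 lay below the low-low libraries and the other two among them, and without standard-low 3 the log2 fold change was -0.12. Kcna4, an A-type channel, had 7.03, 8.10, 7.30 and 7.37 CPM in the low-low libraries, against 8.30, 8.27, 8.12 and 7.61 CPM in the standard-low ones, where only standard-low 4 reached into the low-low range (log2 fold change 0.11 ± 0.11 (SE), adjusted p = 0.871, edgeR). Kcna5, the Shaker gene with the largest sum, had 31.0 ± 1.33 CPM in the low-low libraries, against 30.9 ± 1.88 CPM in the standard-low ones (SD, n = 4 each). None of these genes passed the test, and the groups overlapped in each.

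Of the Shab genes, which carry delayed rectifier currents, Kcnb2 had 30.3 ± 1.39 CPM in the low-low libraries, against 31.1 ± 1.37 CPM in the standard-low ones (SD, n = 4 each), a difference smaller than either SD.

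Shaw channels close fast and let neurons fire at high rates. Kcnc1, with the largest sum of them, had 25.3, 25.5, 28.3 and 25.5 CPM in the low-low libraries, against 25.9, 20.3, 27.4 and 23.3 CPM in the standard-low ones (log2 fold change -0.11 ± 0.09 (SE), adjusted p = 0.839, edgeR). Standard-low 2 was its lowest library, and the groups overlapped.

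The Shal genes, which carry the A-type current of dendrites, were all lower in standard-low on the mean, though Kcnd2 was not without standard-low 3 (log2 fold change 0.02). Their summed level was 79.5, 80.2, 80.8 and 77.6 CPM in the low-low libraries, against 75.4, 75.8, 70.9 and 73.3 CPM in the standard-low ones, with no overlap between the groups. It is the subfamily in which the groups separated, and it was picked out after the values of all 10 were seen. In each of the 3 genes alone the groups overlapped. Over single genes, 2.09% of all had the groups apart in this direction, and no such share was worked out for sums of several genes. Kcnd1 had 11.4, 11.1, 11.5 and 10.4 CPM in the low-low libraries, against 11.0, 8.10, 10.7 and 6.93 CPM in the standard-low ones, with the spread on the standard-low side (log2 fold change -0.28 ± 0.13 (SE), adjusted p = 0.805, edgeR). Of its 6 contigs, 4 had under 100 bases aligned to mouse, so their place in Kcnd1 is uncertain. With at least 100 aligned bases its log2 fold change was -0.42 (adjusted p = 0.808, edgeR). Kcnd3, with the largest sum, had 35.1, 38.3, 35.8 and 36.8 CPM in the low-low libraries, against 31.5, 34.1, 34.0 and 36.2 CPM in the standard-low ones (adjusted p = 0.819, edgeR). Kcnd2 had 33.1, 30.7, 33.6 and 30.4 CPM in the low-low libraries, against 32.9, 33.7, 26.3 and 30.3 CPM in the standard-low ones, and standard-low 3 was its lowest library (adjusted p = 0.924, edgeR). Different libraries thus lay lowest in the 3 genes: standard-low 4 in Kcnd1, standard-low 3 in Kcnd2 and standard-low 1 in Kcnd3.

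Of the M-current genes, Kcnq3, whose subunit is part of the classical M-channel, had 17.7, 16.3, 18.5 and 17.3 CPM in the low-low libraries, against 17.9, 19.1, 18.0 and 17.6 CPM in the standard-low ones. The groups overlapped. Kcnq5, with the largest sum, had 50.7, 54.4, 54.7 and 52.1 CPM in the low-low libraries, against 55.1, 56.1, 52.3 and 57.5 CPM in the standard-low ones (log2 fold change 0.06 ± 0.06 (SE), adjusted p = 0.871, edgeR), and 3 of its 4 standard-low libraries lay above all low-low ones.

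Among EAG, ERG and ELK genes, Kcnh1 had the largest sum of all Kv genes, with 122.0, 123, 120.4 and 123 CPM in the low-low libraries, against 118, 101, 129 and 108 CPM in the standard-low ones. The low-low libraries lay between 120.4 and 123 CPM, while standard-low held both the lowest and the highest of the 8 (log2 fold change -0.10 ± 0.06 (SE), adjusted p = 0.812, edgeR). Kcnh2, the ERG gene whose channel repolarises the heart, had 17.1, 18.8, 18.5 and 17.5 CPM in the low-low libraries, against 16.9, 14.6, 20.6 and 13.5 CPM in the standard-low ones, also with a wider standard-low range (log2 fold change -0.13 ± 0.11 (SE), adjusted p = 0.839, edgeR). The other 6 ran from -0.21 in Kcnh3 to 0.10 in Kcnh7 on the log2 scale.

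The modifier subunits held the genes with the lowest p. Kcng1 had 22.8, 23.9, 20.8 and 24.1 CPM in the low-low libraries, against 19.9, 16.6, 21.5 and 18.9 CPM in the standard-low ones, where only standard-low 3 reached the lowest low-low value (log2 fold change -0.25 ± 0.09 (SE), adjusted p = 0.805, edgeR). Kcng4 had 16.3, 18.7, 17.0 and 19.0 CPM in the low-low libraries, against 16.3, 13.8, 16.1 and 13.9 CPM in the standard-low ones. Low-low 1 and standard-low 1 nearly met, and no libraries overlapped, which held for 1 Kv gene, beside 2.09% of all genes (log2 fold change -0.24 ± 0.10 (SE), adjusted p = 0.805, edgeR). In the higher direction the groups of 0 Kv genes were apart, beside 1.4% of all genes.

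Kcng2 had 12.7, 11.6, 11.96 and 11.1 CPM in the low-low libraries, against 15.7, 10.8, 11.7 and 13.7 CPM in the standard-low ones (log2 fold change 0.13 ± 0.12 (SE), adjusted p = 0.852, edgeR). Kcnf1, the one gene of its subfamily, had 5.81, 5.65, 5.54 and 5.68 CPM in the low-low libraries, against 5.90, 4.05, 4.81 and 3.80 CPM in the standard-low ones, with 3 standard-low libraries below all low-low ones (log2 fold change -0.29, adjusted p = 0.805, edgeR). Kcns1, a modifier found in sensory neurons, had 10.1, 9.58, 9.47 and 10.7 CPM in the low-low libraries, against 11.3, 10.5, 10.4 and 11.7 CPM in the standard-low ones. Only low-low 4 reached into the standard-low range (log2 fold change 0.14 ± 0.10 (SE), adjusted p = 0.826, edgeR). Kcns3, with the largest Kcns sum, had 16.1, 16.2, 18.0 and 17.9 CPM in the low-low libraries, against 16.4, 16.7, 15.3 and 16.1 CPM in the standard-low ones. Kcnv2, the partner of Kcnb subunits in photoreceptors, had 4.35, 4.23, 4.66 and 5.45 CPM in the low-low libraries, against 4.36, 6.16, 5.14 and 4.14 CPM in the standard-low ones. In both of these genes the groups overlapped.

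**Figure D5:**
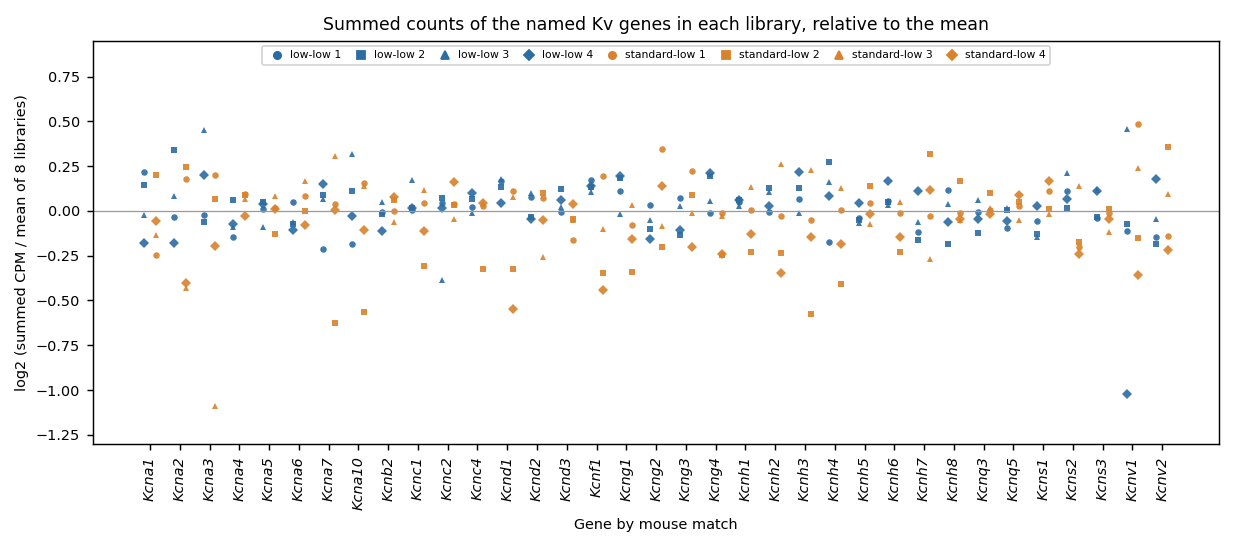
Log2 of a Kv gene's summed CPM in a library over its mean, with the named genes ordered by subfamily, libraries coloured by group and marker shapes giving the library number. The points of both groups mix in nearly all genes, and over all 39 Kv genes standard-low 2 was the lowest library in 16.

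Proteins that join Kv channels were read from a list of 27 gene symbols: auxiliary subunits such as the Kcnab, Kcne and Kcnip families, Dpp6, Dpp10 and Amigo1, and proteins that anchor or cluster the channels, such as Ank3, Cntnap1, Lgi1, Vapa and the Dlg genes. Of these symbols, 25 had a contig inside and 0 passed, with 10 higher and 15 lower and a median log2 fold change of -0.04. The symbols without a contig, Kcne1l and Kcne5, name the same gene. At an unadjusted p under 0.05, 1 gene was lower and 1 higher, beside 4.33% and 1.7% of all genes. Kcnip3, a calcium-binding subunit of Shal channels, had 40.5 ± 2.29 CPM in the low-low libraries, against 34.5 ± 3.96 CPM in the standard-low ones (SD, n = 4 each), a log2 fold change of -0.23 with no overlap between the groups (adjusted p = 0.805, edgeR). Dlg2, a scaffold that clusters Shaker channels, had 76.0 ± 1.20 and 84.0 ± 8.52 CPM, also with no overlap (log2 fold change 0.15, adjusted p = 0.805, edgeR). Groups were apart in these 2 of the 25 genes, beside 2.09% of all genes in the lower and 1.4% in the higher direction. The auxiliary subunits alone were 7 higher and 7 lower, and the anchoring genes 3 higher and 8 lower.

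Genes that mark brain cell types were counted in the same way, as captured DNA. Of 25 genes, 20 had a contig inside and 0 passed, with 6 higher and 14 lower, and Tmem119, a microglial gene, was the 1 lower at an unadjusted p under 0.05, beside 4.33% of all genes. The median log2 fold change was -0.02 for neuronal, -0.23 for oligodendrocyte, -0.14 for astrocyte, -0.10 for microglial and 0.01 for endothelial genes. Their summed levels ran, low-low first, over 244 to 254 and 233 to 262 CPM for neurons, 67.7 to 71.4 and 54.4 to 72.7 for oligodendrocytes, 55.4 to 63.7 and 56.1 to 63.0 for astrocytes, 88.9 to 91.8 and 69.9 to 96.3 for microglia, and 230.1 to 235 and 227 to 243 for endothelium. Map2, Olig2, Gfap, P2ry12 and Cldn5 had no contig inside. These medians stand beside -0.08 for the Kv genes, and the part of such cell types in the Kv values was not tested.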

How the data were processed

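The authors deposited whole-number read counts per contig for 8 methyl-CpG capture libraries, with each contig's sequence and, where it had one, its mouse match, nearest mouse gene and distance. The submitters' processing notes name FastQC for read quality and BWA for alignment. Their versions, the assembler, the mouse build and the handling of reads with several placements were not given in the sources used here. The lowest summed count of a contig was 81, so contigs below some minimum are absent. The header separates library names by spaces, and columns were matched in its order. Gene names rest on similarity to mouse, and the position in exons or introns was not analysed here. All 39 Kv symbols also occur in the RefSeq gene table of the sand rat.

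The test for contigs was edgeR 4.0.16 under R 4.3.3 (TMM factors, glmQLFit, two-sided glmQLFTest, Benjamini-Hochberg adjustment over all contigs at 0.05). Counts of contigs inside a gene were summed by symbol and tested with the same factors over all genes. The test was also run on simulated counts, which held no difference between libraries by CpG density, so that part was not checked. Alternatives were DESeq2 1.42.0, limma 3.58.1 voom, other scaling, other filters, a minimum of 100 aligned bases, 5000 flanking bases, a replicate block and each library left out. Values per library were given for the 5 contigs of lowest p and the 4 genes of lowest p in each direction, the 3 most abundant contigs, the gene with the largest sum in each subfamily, and Kcna1, Kcna2, Kcnc1, Kcnd2, Kcnq3 and Kcnh2. Some of the contigs and genes this rule takes are not reported here. The members, lists and this rule were chosen with earlier results of these data known. Depth was 11646180 to 13533441 counts per library, and single Kv contigs rest on few counts in each.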

Additional observations from a re-analysis of the deposited data

Results flagged for a closer look

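Each group of 4 libraries was searched for a highest or lowest library whose gap to its nearest neighbour, divided by the group's range, passed Dixon's critical value, over 110 groups from the named Kv contigs, the Kv genes and the subfamilies. It was met 9 times, and with normal values chance alone gives about 1 in 20 groups. The groups are not independent, as subfamily sums hold the counts of their genes and some contigs were named for a low p. Whether 9 exceeds that rate was therefore not tested. No explanation was weighed.

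Among contigs, standard-low 4 was low in contig 388738 of Kcnh1, at 2.96 CPM against 3.51 to 3.56 in the other standard-low libraries. Low-low 1 was high in contig 3604352 of Kcnh3, at 0.993 CPM against 0.722 to 0.768.

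Among summed genes, the Shaw genes stood out 3 times. Low-low 3 was high in Kcnc1, at 28.3 CPM against 25.3 to 25.5, and low in Kcnc2, at 12.04 CPM against 15.9 to 16.5. Standard-low 2 was low in Kcnc4, at 10.5 CPM against 13.3 to 13.5, and in the sum over the Kcnc subfamily, at 54.2 CPM against 66.2 to 67.6. The ERG gene Kcnh6 was high in low-low 4, at 26.1 CPM against 23.8 to 24.1. The ELK gene Kcnh8 was high in standard-low 2, at 20.6 CPM against 17.7 to 18.1. The modifier gene Kcns2, read from 1 contig, was high in standard-low 3, at 6.71 CPM against 5.15 to 5.40.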

How the results depend on the processing

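Under all 9 other settings that kept every library, 0 Kv genes and 0 auxiliary and anchoring genes passed the threshold. The same held for Kv contigs, with 0 past it, under those settings that fitted contigs anew (all but the 100 aligned bases and the 5000 flanking bases). Of the 303 Kv contigs of the main fit with at least 100 aligned bases, 0 passed. The unadjusted count of 27 Kv contigs became 12 with DESeq2 and 17 with a mean of at least 20 counts, which kept 183 Kv contigs and left 1 higher and 16 lower, beside 1.96% and 3.85% of all contigs tested there. Their median log2 fold change was then -0.089, against -0.04 over all 357, and that of all contigs -0.036. With each library left out in turn, 0 to 2 Kv contigs passed, the 2 without standard-low 3, and 19 to 39 had an unadjusted p under 0.05. The share of all contigs at that level ran from 4.92% to 7.52%, highest without standard-low 3. The same count ran from 2 to 13 for Kv genes, with 13 without standard-low 3. Beside it stood 3.97% to 14.8% of all genes, again highest without standard-low 3. With libraries left out, the median log2 fold change of the Kv genes ran from -0.098 to -0.017, the latter without standard-low 2, and that of the Kv contigs from -0.06 to 9.38e-05. Whether the replicate numbers pair the libraries cannot be told from correlations this weak. The correlation of deviations ran from -0.00838 to 0.0307 between same-numbered libraries and from -0.0403 to 0.0315 between differently numbered ones. Even so, 5 of 8 libraries correlated best with their own number. With the replicate number as a block, 30 Kv contigs and 5 Kv genes had an unadjusted p under 0.05, beside 5.74% of all contigs and 7.08% of all genes, and none passed.

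Over the named contigs and genes and all settings, 455 values kept direction and call, 1 passed the threshold and 14 changed sign, all 14 close to 0. The 455 include the values without a filter, which repeat the main fit. The Kcnb2 contig 3182226 was at 0.000119 with DESeq2, 7.19e-05 with RLE factors and 0.0109 with library totals alone. The Kcna5 sum was at 0.0062 with library totals alone. With libraries left out in turn, the log2 fold change ran from -0.0705 to 0.0526 for contig 3182226, -0.195 to 0.0936 for the Kcna7 contig and -0.199 to 0.0385 for the Kcnh1 contig 10258. It ran from -0.0369 to 0.0329 for the Kcna5 sum, -0.0376 to 0.166 for Kcnv2 and -0.0988 to 0.0163 for Kcnd2. The cause was not tested. A Kv contig rests on few counts per library, which limits what could be detected for single contigs.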
